A study of Mus musculus with 2 samples.

Results

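Activated fibroblasts that express Tnc, Cthrc1 and Lrrc15 were taken from 2 single-cell RNA-seq libraries of injured tibialis anterior muscle from mice 8 to 12 weeks old. Mice of the KO library carried a conditional Setdb1 knockout, and those of the WT library were wild type, so each group has 1 library and no comparison between them has a replicate. For the Cre driver, the injury, the sampling day and the number of mice pooled per library, the labels used here give no entry. Cells were freed with collagenase II and dispase and sorted by Hoechst and propidium iodide, so cells that did not survive this are not seen. A barcode entered with at least 5000 UMIs (unique molecular identifiers, each counting 1 captured RNA molecule), at most 10% mitochondrial UMIs, at least 2 Pdgfra UMIs, at least 100 UMIs of Dcn, Col1a1 and Col3a1 together, at most 2 Tnmd UMIs, at most 1 UMI of Csf1r, Cdh5 and Cdh15 together, and at most 3 UMIs of Mki67 and Top2a together. This left 642 non-cycling fibroblasts, 261 in KO and 381 in WT. The 25% with the most Tnc, Cthrc1 and Lrrc15 UMIs per 10000, ranked over both libraries, are the activated fibroblasts. There were 160 of them, 104 in KO and 56 in WT, of 13508 barcodes that passed the depth and mitochondrial limits. The other 482 non-cycling fibroblasts, 157 in KO and 325 in WT, are the cells most like them.

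Fibroblasts of muscle express Pdgfra, lie between the fibres and build scaffold matrix after injury, while supplying signals to muscle stem cells and immune cells. In an activated state they secrete fibrillar collagens and matricellular proteins and can take on contractile proteins, a myofibroblast programme. Tnc encodes tenascin-C, a large matrix glycoprotein laid down in wounds and in developing tendon. Cthrc1 encodes a secreted protein with a collagen-like repeat that marks matrix-rich fibroblasts after injury, and Lrrc15 a leucine-rich repeat membrane protein found on myofibroblast-like cells. Setdb1 is a histone methyltransferase that places the repressive mark of trimethylated lysine 9 on histone H3 and silences retrotransposons and some genes.

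Promoter windows are shown for Tnc and Lrrc15, which define the cells, and for C1qtnf3, which had the largest ratio over other fibroblasts among the measured genes that were higher and outside the rule. Each is 300 bases long, mostly before the annotated start, is read 5′ to 3′ on the gene's strand, and comes from RefSeq on GRCm38.p6. Capitals mark the letters of motifs searched on both strands.
Tnc, chr4:64046966-64047265, minus strand: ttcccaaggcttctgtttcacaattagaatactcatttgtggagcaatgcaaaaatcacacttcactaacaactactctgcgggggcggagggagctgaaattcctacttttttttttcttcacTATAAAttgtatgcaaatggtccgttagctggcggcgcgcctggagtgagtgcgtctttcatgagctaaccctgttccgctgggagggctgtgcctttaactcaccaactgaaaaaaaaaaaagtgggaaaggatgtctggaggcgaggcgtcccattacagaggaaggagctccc
Lrrc15, chr16:30283205-30283504, minus strand: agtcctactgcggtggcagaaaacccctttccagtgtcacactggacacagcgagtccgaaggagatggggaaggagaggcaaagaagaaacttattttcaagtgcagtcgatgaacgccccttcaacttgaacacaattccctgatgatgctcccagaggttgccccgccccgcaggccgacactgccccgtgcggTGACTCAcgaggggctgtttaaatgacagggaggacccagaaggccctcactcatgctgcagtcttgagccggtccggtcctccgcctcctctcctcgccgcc
C1qtnf3, chr15:10952082-10952381, plus strand: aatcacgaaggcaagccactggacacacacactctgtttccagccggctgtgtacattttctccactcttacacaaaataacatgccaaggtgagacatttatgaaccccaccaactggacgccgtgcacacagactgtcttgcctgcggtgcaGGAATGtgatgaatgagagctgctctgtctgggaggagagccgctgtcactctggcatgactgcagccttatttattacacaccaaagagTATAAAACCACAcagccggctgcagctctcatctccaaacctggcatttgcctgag
The Lrrc15 window holds the AP-1 letters TGANTCA, found in 7.81% of 32851 such windows. Both Tnc and C1qtnf3 hold the TATA letters TATAAA, found in 13.6% of windows. Relative to the annotated start they lie at -126 to -121 in Tnc and at -6 to -1 in C1qtnf3. Tnc has another window from a different annotated start, chr4:64046887-64047186, which is not shown. It holds the same letters at -205 to -200. The C1qtnf3 window also holds the TEAD letters GGAATG (14.7% of windows) and, directly after TATAAA, the RUNX letters TGTGGT on the other strand (16.8% of windows). The SMAD letters GTCTAGAC were also searched, and are in 0.213% of windows. These are matches of letters and not measured binding.

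The activated fibroblasts were deeply covered, with a median of 34438 UMIs per cell in KO and 29915.5 in WT, against 27625 in KO and 21609 in WT among other fibroblasts. The median mitochondrial share of activated cells was 0.542% in KO and 0.727% in WT. No barcode sequence of a non-cycling fibroblast occurred in both libraries, and 8 did among all barcodes of sufficient quality. Levels below are CPM, the summed UMIs of a gene per 1e6 UMIs of all cells of that kind in that library. Bracketed ranges are exact 95% intervals, Poisson or conditional binomial for UMIs and Clopper-Pearson for cells, and they cover counting error only. Setdb1 (chr3:95323525-95357202 on GRCm38) stood at 16.1 CPM in KO and 15.7 CPM in WT, from 57 and 27 UMIs, a ratio of 1.03 (0.64 to 1.69). Counts from the 3′ end can include transcripts that lack an internal deleted part, so this neither checks nor contradicts the KO label.

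The label was read against marker genes. Of the 8 fibroblast markers, the gate had used Pdgfra, Dcn, Col1a1 and Col3a1, so their levels check nothing. The 4 it had not used were all above 50 CPM. Lum, a small proteoglycan of collagen fibrils, was at 461 CPM in KO and 555 CPM in WT. Mfap5, a microfibril protein, was at 1846 CPM in KO and 2255 CPM in WT. Gsn, an actin-severing protein, was at 375 CPM in KO and 392 CPM in WT, and Col6a3, a chain of collagen VI, at 1100 CPM in KO and 813 CPM in WT. Tnc ranked the cells, so its detection describes the selection. After every cell was thinned to 5000 UMIs, Tnc was seen in 83.7% of activated cells in KO and 78.6% in WT, and in 45.2% of other fibroblasts in KO and 32.6% in WT. In phagocytes gated on Csf1r, which should lack Tnc, it was seen in 6.82% of cells in KO and 1.62% in WT at the same thinned depth. Before thinning, Tnc was seen in 95.2% of activated cells in KO and 91.1% in WT. In the phagocytes, whose median depths were 12032 UMIs in KO and 11886 in WT, the unthinned shares were 12.9% and 3.68%. Summed endothelial markers were at 17.5 CPM in KO and 14.5 CPM in WT, and summed myogenic markers at 43.8 CPM in KO and 36.0 CPM in WT, with none of the 8 in either list at 50 CPM. Schwann cell markers summed to 234 CPM in KO and 388 CPM in WT, against 406 CPM in other fibroblasts of KO and 396 CPM in those of WT. Cryab and Scn7a were the 2 of that list at 50 CPM or more. Its Gfra3 was at 0 in both libraries, and Sox10, which defines the lineage, had 0.565 CPM in KO and 0 in WT. Phagocyte markers summed to 529 CPM in KO and 408 CPM in WT, against 683 and 848 CPM in other fibroblasts of KO and WT. The part of these markers in the results was not tested.

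Tendon cells also express Tnc and lie close to fibroblasts in expression. Of 10 tenocyte markers, 9 were detected in activated cells of each library, with Cilp2 at 0 in KO and Kera at 0 in WT, and only Thbs4 reached 50 CPM. Their sum was 837 CPM in KO and 1016 CPM in WT, of which Thbs4, a thrombospondin of tendon and muscle matrix, made 728 and 928 CPM. The same sum in cells that fail only the Tnmd limit was 8812 CPM in KO and 5977 CPM in WT. In other fibroblasts it was 467 CPM in KO and 713 CPM in WT, with 2 of the 10 markers at 50 CPM or more in each library. Scx, the tendon transcription factor, was seen in 27 of 104 activated cells in KO and 14 of 56 in WT, against 10 of 157 other fibroblasts in KO and 15 of 325 in WT. Thinned to 5000 UMIs, Scx was in 8.65% (4.03 to 15.8) of activated cells in KO and 12.5% (5.18 to 24.1) in WT, against 2.55% of other fibroblasts in KO and 1.85% in WT, and 1.27% and 0.304% of the phagocytes. The activated cells thus carried the fibroblast markers together with Thbs4 and a low level of Scx.

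Activated cells made up a larger share of fibroblasts in the KO library. They were 39.8% (33.9 to 46.1) of 261 non-cycling fibroblasts in KO and 14.7% (11.3 to 18.7) of 381 in WT, a ratio of 2.71 (1.94 to 3.82). Over all barcodes passing the depth and mitochondrial limits, the shares were 1.53% in KO and 0.833% in WT, a ratio of 1.84 (1.32 to 2.59). Non-cycling fibroblasts as a whole went the other way, at 3.85% of barcodes in KO and 5.67% in WT. The ratio of the activated share was 4.15 when only the top 15% were taken and 1.88 when the score used Cthrc1 and Lrrc15 without Tnc. Since each group is 1 library, the share cannot be told apart from differences between preparations.

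**Figure D1:**
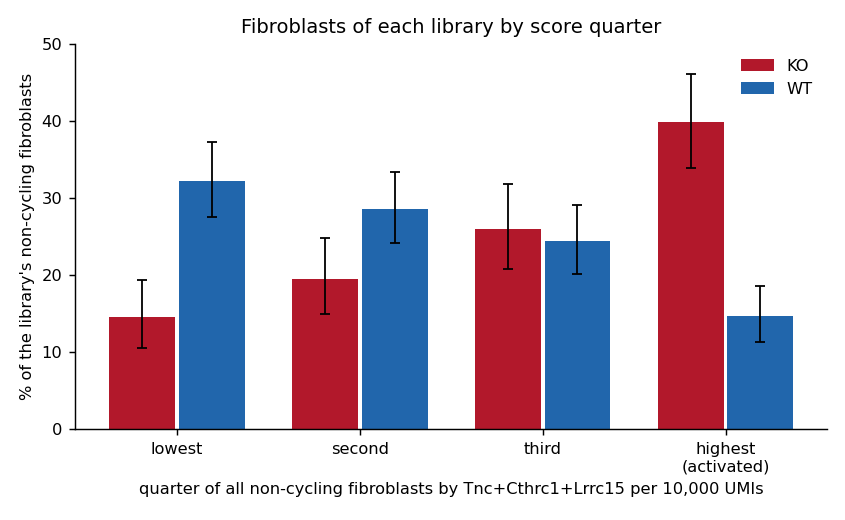
Share of each library's non-cycling fibroblasts (y axis, percent) in 4 equal bins of the summed Tnc, Cthrc1 and Lrrc15 level over both libraries (x axis), with KO left and WT right in each pair and exact 95% binomial intervals as bars. Over the bins, low to high, the KO library holds 38, 51, 68 and 104 cells and the WT library 123, 109, 93 and 56.

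The excess of KO cells grew along the score. Over the 4 equal bins, low to high, the share of KO fibroblasts was 14.6, 19.5, 26.1 and 39.8%, and the share of WT fibroblasts was 32.3, 28.6, 24.4 and 14.7%. The bin below the activated cells was close to even, and the KO share was the smaller one in both bins beneath it. The 25% limit fell within a continuum and not in a gap. The last cell inside, from WT, had a score of 22.5 UMIs per 10000 and the first outside, from KO, 22.2. Fibroblasts that fail only the Mki67 and Top2a limit, a cycling gate of 102 cells in KO and 50 in WT, also scored high, with a median of 29.3 UMIs per 10000 in KO and 14.2 in WT. They were 25.7% (21.5 to 30.3) of gated fibroblasts in KO and 10.8% (8.09 to 13.9) in WT.

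Within the activated cells the KO library carried more of the score, mostly through Tnc and to a smaller extent through Lrrc15. The median score was 37.5 UMIs per 10000 in KO and 29.5 in WT. Tnc (chr4:63959785-64047015) was at 1646 CPM in KO and 845 CPM in WT, a ratio of 1.95 (1.84 to 2.06). Lrrc15 (chr16:30269302-30283256) was at 305 CPM in KO and 193 CPM in WT, a ratio of 1.58 (1.40 to 1.79). Cthrc1 (chr15:39076932-39087121) was at 2274 CPM in KO and 2235 CPM in WT, a ratio of 1.02 (0.98 to 1.06). All of these genes chose the cells, so their levels describe the selection and support nothing further.

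Cells of the activated group reached the limit by different genes. Per cell, Tnc ran between 0 and 115 UMIs per 10000 in KO with a median of 12.0, and between 0 and 32.2 in WT with a median of 6.82. Cthrc1 ran between 0 and 55.8 in KO with a median of 21.9, and between 6.40 and 41.3 in WT with a median of 22.7. Both libraries therefore had a like centre for Cthrc1, and the KO library had an upper range of Tnc that WT cells did not reach. Tnc UMIs outnumbered Cthrc1 UMIs in 36 of 104 activated cells in KO (34.6%, 25.6 to 44.6) and in 8 of 56 in WT (14.3%, 6.38 to 26.2). All of Tnc, Cthrc1 and Lrrc15 were detected in 96 activated cells in KO and 43 in WT.

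**Figure D2:**
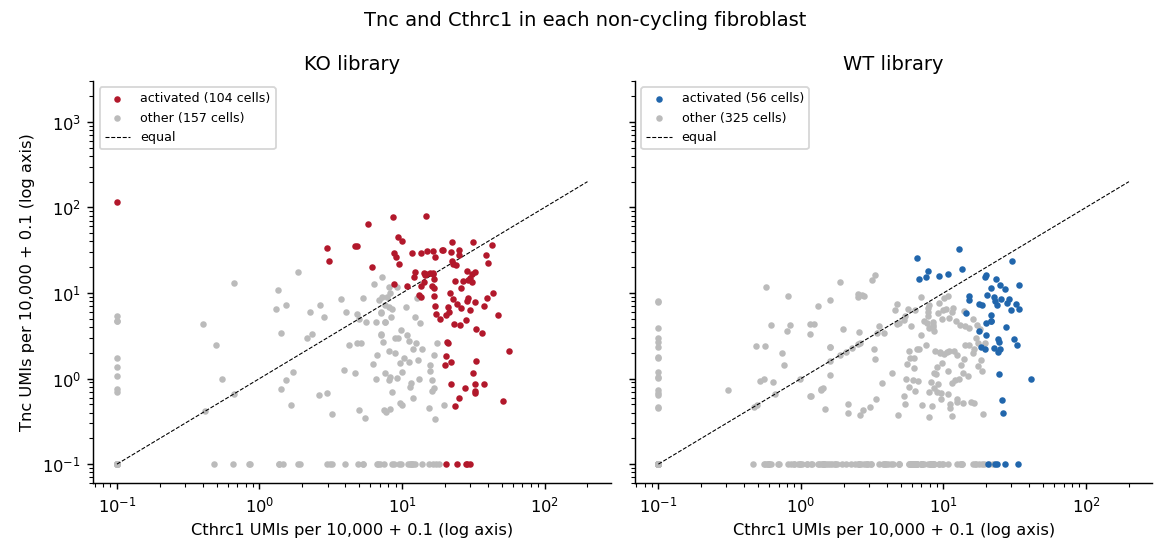
Each point is a non-cycling fibroblast, with Cthrc1 (x axis) against Tnc (y axis) in UMIs per 10000 plus 0.1 on log axes, KO left and WT right, activated cells in colour and others in grey. The 36 KO and 8 WT activated cells above the dashed line of equal UMIs hold more Tnc than Cthrc1.

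Across activated cells, Tnc and Cthrc1 had a Spearman correlation of -0.50 in KO (104 cells) and -0.42 in WT (56 cells), while across all non-cycling fibroblasts it was 0.31 in KO (261 cells) and 0.39 in WT (381 cells). A selection on the sum of both genes lowers the correlation among the selected cells, and the cells of a library share its depth and preparation. Acta2, the smooth muscle actin of myofibroblasts, had a correlation with Tnc of 0.47 in KO and 0.35 in WT among activated cells. With Cthrc1 the same value was -0.18 in KO and 0.14 in WT. C1qtnf3, a secreted C1q and TNF related protein, had a correlation with Cthrc1 of 0.44 in KO and 0.29 in WT, against -0.01 in KO and 0.15 in WT with Tnc.

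The activated cells with more Tnc than Cthrc1 UMIs were set beside the remaining activated cells of the same library, as a description with groups and genes chosen after values were seen. Of 2674 genes measured, 8 (0.299%) were past 2-fold higher in both libraries, Tnc among them, and 12 (0.449%) past 2-fold lower. Spp1, which encodes the matrix cytokine osteopontin, was at 381 CPM against 59.8 CPM in KO, and at 294 CPM against 38.4 CPM in WT. Thbs1, an adhesive glycoprotein that can activate latent TGF-beta, was at 327 CPM against 126 CPM in KO, and at 320 CPM against 91.7 CPM in WT. Ccl11, Il33, Cxcl14, Itga5 and Kdm6b were the other genes past 2-fold higher. Those past 2-fold lower included the secreted Wnt-binding proteins Sfrp1 and Sfrp2, the growth factor Igf1, and the surface protein Ly6c1, which was at 38.5 CPM against 242 CPM in KO and at 25.2 CPM against 177 CPM in WT. The WT values rest on 8 cells with more Tnc.

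Genes past 2-fold higher in activated cells included contractile genes and a collagen, and those past 2-fold lower included 10 genes of the resting fibroblast list. Of 2797 genes with at least 50 CPM in activated or in other cells of both libraries, 12 (0.429%) were past 2-fold higher in both libraries and 48 (1.72%) past 2-fold lower. The 12 include Tnc, Cthrc1 and Lrrc15 by construction. Irrespective of size, 1599 of the 2797 were higher in activated cells of KO and 1198 lower, and 1733 and 1064 in those of WT. Counts for lists below require the same direction in both libraries, a number that was not counted over all genes. Because the rule picked the cells by their UMIs, all of these differences describe the cells and are not tested. Differences are given as log2 ratios of CPM + 5, which understate the change of low genes.

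**Figure D3:**
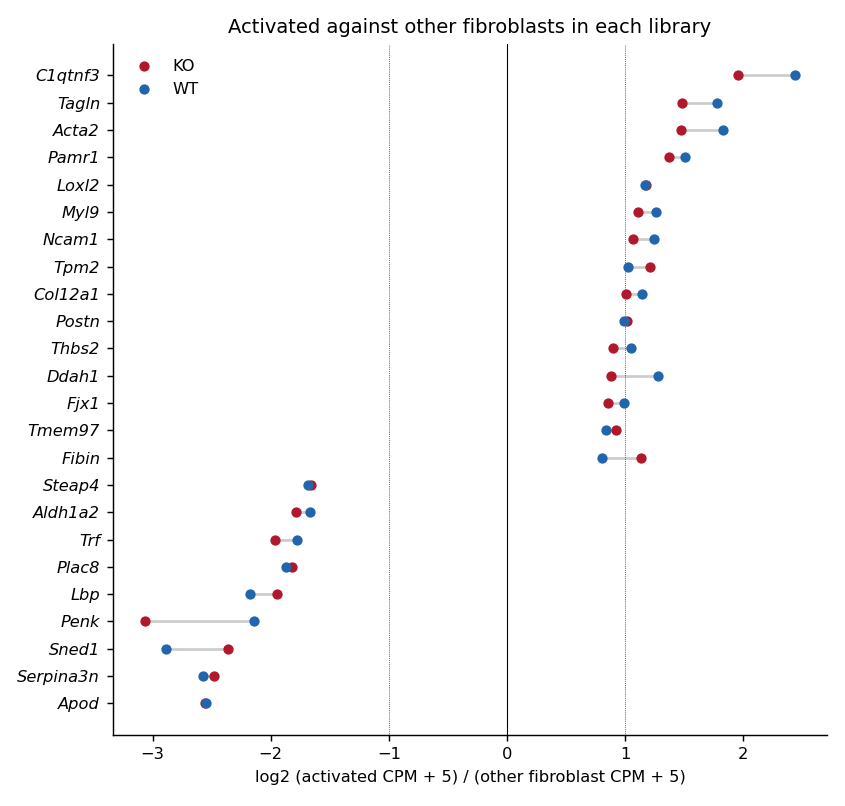
Log2 ratio of activated over other non-cycling fibroblasts (x axis, CPM + 5) for 15 of the genes furthest up and 9 of those furthest down in both libraries (y axis), KO in red and WT in blue. The points of a gene lie on the same side of 0 in both libraries for all 24 genes shown, which is what chose them.

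C1qtnf3 led the genes outside the rule, at 486 CPM in activated and 122 CPM in other fibroblasts of KO, and at 563 and 99.9 CPM in those of WT, log2 ratios of 1.95 in KO and 2.44 in WT. It was detected in 79.8% of activated cells in KO and 85.7% in WT, so most but not all carried it. Acta2 was at 1002 CPM in activated and 358 CPM in other fibroblasts of KO, and at 594 and 164 CPM in those of WT. Tagln, an actin-binding protein of smooth muscle, had log2 ratios of 1.48 in KO and 1.78 in WT. Myl9 and Tpm2, a myosin light chain and a tropomyosin, had 1.11 and 1.21 in KO and 1.26 and 1.02 in WT.

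The contractile and cytoskeletal list moved together. Of its 28 measured genes, 26 were higher in activated cells of both libraries and 4 past 2-fold, with a median log2 ratio of 0.39 in KO and 0.40 in WT, beside 0.04 in KO and 0.08 in WT over all 2797 genes. Matrix lists went in different directions. Of 13 interstitial collagen genes, 9 were higher in both libraries, none lower in both, and Col12a1, a collagen that sits on fibril surfaces, was past 2-fold, at 502 CPM in activated and 247 CPM in other cells of KO and at 298 and 132 CPM in those of WT. Postn, the matricellular protein periostin, was at 6487 CPM in activated and 3213 CPM in other cells of KO, and at 6905 and 3469 CPM in those of WT. Loxl2, which cross-links collagen, had a log2 ratio of 1.17 in both libraries. Of 28 genes for collagen folding and cross-linking 23 were higher in both, and of 24 genes of the endoplasmic reticulum and secretion 22 were. Of 38 matricellular and glycoprotein genes, by contrast, 14 were higher and 19 lower in both, with 0 past 2-fold higher and 2 past 2-fold lower. Of 9 basement membrane genes 1 was higher and 6 were lower in both, and of 23 proteases and inhibitors 7 were higher and 10 lower. Other named genes at the high end were Pamr1, Ncam1, Thbs2, Ddah1, Fjx1, Tmem97 and Fibin.

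Genes of resting fibroblasts stood lower. Of 20 measured genes of that list, 15 were lower in activated cells of both libraries and 10 past 2-fold, with medians of -1.22 in KO and -1.17 in WT. Apod, a secreted lipocalin, was at 119.5 CPM in activated and 725 CPM in other cells of KO, and at 379 and 2245 CPM in those of WT, a log2 ratio of -2.55 in both. Its level followed the score in steps. Over the 4 score bins, low to high, it was 1487, 858, 376.5 and 119.5 CPM in KO and 3271, 2700.5, 765 and 379 CPM in WT. Penk (proenkephalin), Serpina3n, Sned1, Lbp, Plac8, Trf, Aldh1a2 and Steap4 were other named genes at the low end.

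Immune-facing genes were also lower. All 7 measured complement genes were lower in both libraries, although C1qa and C1qb were within 2 times the level free RNA could give. C3, the central complement component, was at 44.4 CPM in activated and 197 CPM in other cells of KO, and at 99.3 and 292 CPM in those of WT. Of 18 chemokine and cytokine genes 14 were lower in both, among them Cxcl12, the ligand of Cxcr4, with log2 ratios of -1.46 in KO and -1.59 in WT. Of 14 interferon-stimulated genes 12 were lower in both. Lists without an immune theme leaned low too: matrix receptors 14 of 20, fibroblast transcription factors 12 of 18, heat shock with immediate early 19 of 29. Direction alone thus sets the chemokine list little apart. Median log2 ratios in KO and WT were -1.22 and -1.14 for complement, -0.67 and -0.60 for chemokines, and -0.70 and -0.71 for interferon. For the other lists they were -0.24 and -0.16, -0.10 and -0.21, and -0.21 and -0.10, in the order given.

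Within the activated cells, KO and WT levels were close for most genes. Among 3032 genes that reached 50 CPM in either library and 20 UMIs over both, 24 (0.792%) were past 2-fold higher in KO and 26 (0.858%) past 2-fold lower, and the median log2 ratio was 0.05. Irrespective of size, 1716 of the 3032 were higher in KO and 1316 lower, against which the counts for lists below are read. With 1 library per group these counts describe the 2 libraries, without a replicate check and without a p-value. Since KO cells also had higher scores, each WT cell was paired with the KO cell nearest in score, an alternative chosen after seeing the data. The 56 KO cells so taken had a median score of 30.2 beside 29.5 in the 56 WT cells, and Tnc levels of 868 CPM in KO and 845 CPM in WT. Among them 18 genes were past 2-fold higher in KO and 27 lower.

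**Figure D4:**
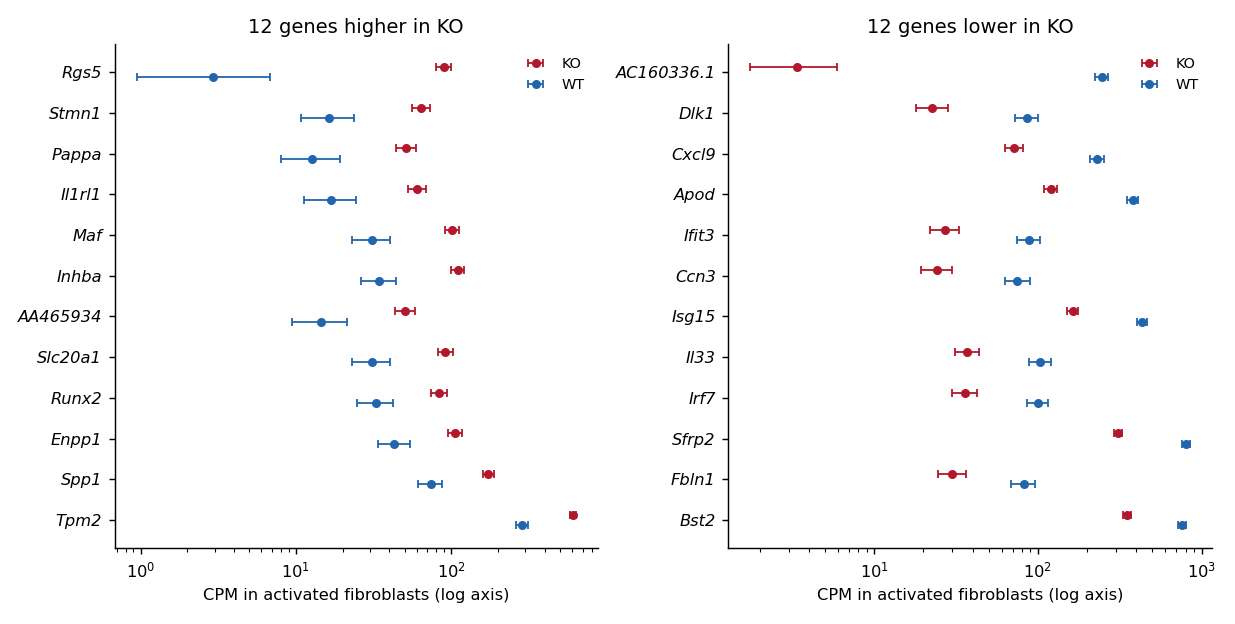
CPM in activated fibroblasts (x axis, log scale) of the 12 genes furthest up in KO (left) and the 12 furthest down (right), KO in red above WT in blue, with exact 95% Poisson intervals as bars. The intervals of KO and WT do not overlap for any gene shown, and they cover counting error only. Genes were chosen by the interval of their KO/WT ratio from the same UMIs, so the lack of overlap adds no support.

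The 12 genes furthest up in KO had varied roles. Inhba, which encodes the activin A subunit, was at 110 CPM in KO and 34.3 CPM in WT, a ratio of 3.21 (2.43 to 4.29), and was seen in 48.1% of activated cells in KO and 23.2% in WT. Runx2, the transcription factor of bone formation, was at 83.3 CPM in KO and 32.5 CPM in WT, a ratio of 2.56 (1.92 to 3.47), in 81.7% of cells in KO and 51.8% in WT. Enpp1, which makes pyrophosphate outside cells and so restrains mineral, was at 105 CPM in KO and 43.0 CPM in WT. Slc20a1, a phosphate transporter, was at 91.5 CPM in KO and 30.8 CPM in WT. Spp1 was at 173 CPM in KO and 73.8 CPM in WT, a ratio of 2.34 (1.93 to 2.86). With a score of Tnc alone the log2 ratio of Spp1 was 0.08, beside 1.18 with the full score. Among 4 measured genes of the osteochondral list 2 were past 2-fold higher, Runx2 and Spp1, while Sox9 stood at 65.5 CPM in KO and 83.7 CPM in WT.

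Tpm2 was at 608 CPM in KO and 286 CPM in WT, a ratio of 2.13 (1.93 to 2.35), and its median per cell was 3.73 UMIs per 10000 in KO and 1.56 in WT. Pappa, a protease that cleaves IGF-binding proteins, was at 51.4 CPM in KO and 12.8 CPM in WT, a ratio of 4.02 (2.58 to 6.58). Maf, a transcription factor, was at 101 CPM in KO and 30.8 CPM in WT. Il1rl1, the receptor of interleukin-33, was at 60.2 CPM in KO and 16.8 CPM in WT, while Il33 itself was at 37.0 CPM in KO and 103 CPM in WT. For Il1rl1, 1 cell held 28.6% of the KO UMIs and 1 cell 34.5% of the 29 WT UMIs. Without these cells its log2 ratio was 1.57, beside 1.58 with them. In other fibroblasts Il1rl1 was at 54.0 CPM in KO and 18.0 CPM in WT. Stmn1, a microtubule regulator that is high in dividing cells, was at 63.8 CPM in KO and 16.3 CPM in WT. AA465934 was at 50.3 CPM in KO and 14.5 CPM in WT. Rgs5, a pericyte gene, was at 89.3 CPM in KO and 2.90 CPM in WT, but 1 KO cell held 77.8% of its UMIs. Without the top cell of each library the log2 ratio of Rgs5 was 1.76, beside 3.58 with all cells. It was 1.66 in the alternative without the highest doublet scores, which removed 1 activated KO cell. Whether that cell was the one rich in Rgs5 was not tested. Summed mural markers were 135 CPM in KO and 12.2 CPM in WT, and Rgs5 made most of the KO sum.

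Genes lower in KO included several interferon-stimulated genes, Sfrp2 and Eln. Isg15, a ubiquitin-like interferon product, was at 163 CPM in KO and 434 CPM in WT, a ratio of 0.38 (0.34 to 0.42). Ifit3, Irf7 and Bst2 were at 27.1, 35.9 and 352 CPM in KO and at 88.3, 99.9 and 763 CPM in WT. Of the 17 measured interferon-stimulated genes 16 were lower in KO, 5 of them past 2-fold, with a median log2 ratio of -0.81, and -0.57 among other fibroblasts. In the score-paired cells 14 of 17 were lower, with a median of -0.75. For Ifit3, 1 cell held 68.8% of the UMIs in KO and 1 cell 39.5% in WT, and Cxcl9, an interferon-induced chemokine at 71.2 CPM in KO and 231 CPM in WT, had 41.7% of its KO UMIs in 1 cell. Without the top cell of each library, log2 ratios were -2.14 for Ifit3 and -2.19 for Cxcl9. For cells of at most 40000 UMIs the log2 ratio of Cxcl9 was -0.61, short of 2-fold, against -1.63 in all activated cells.

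Sfrp2 was at 309 CPM in KO and 801 CPM in WT, a ratio of 0.39 (0.36 to 0.42). All 6 measured genes of the Wnt list were lower in KO, with a median log2 ratio of -0.44, against 0.15 in other fibroblasts, and Sfrp2 alone was past 2-fold. In score-paired cells 5 of the 6 were lower, with a median of -0.61. The Wnt median was -0.20 for a score of Tnc alone and -0.07 for the top 15%, where the log2 ratio of Sfrp2 was -0.40 and no longer past 2-fold. Of 8 elastic-fibre genes 3 were higher and 5 lower in KO, and the same numbers were found in other fibroblasts. Eln, the elastin gene, was at 146 CPM in KO and 323 CPM in WT, a ratio of 0.45 (0.40 to 0.51), while in other fibroblasts it was at 190 CPM in KO and 176 CPM in WT. The elastic-fibre proteins Fbln1, Fbln5 and Mfap4 were at 29.9, 48.6 and 445 CPM in KO and at 81.9, 116 and 917 CPM in WT. The fibrillin gene Fbn1 was at 1181 CPM in KO and 1054 CPM in WT. Paired by score, Eln had a log2 ratio of -1.91.

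**Figure D5:**
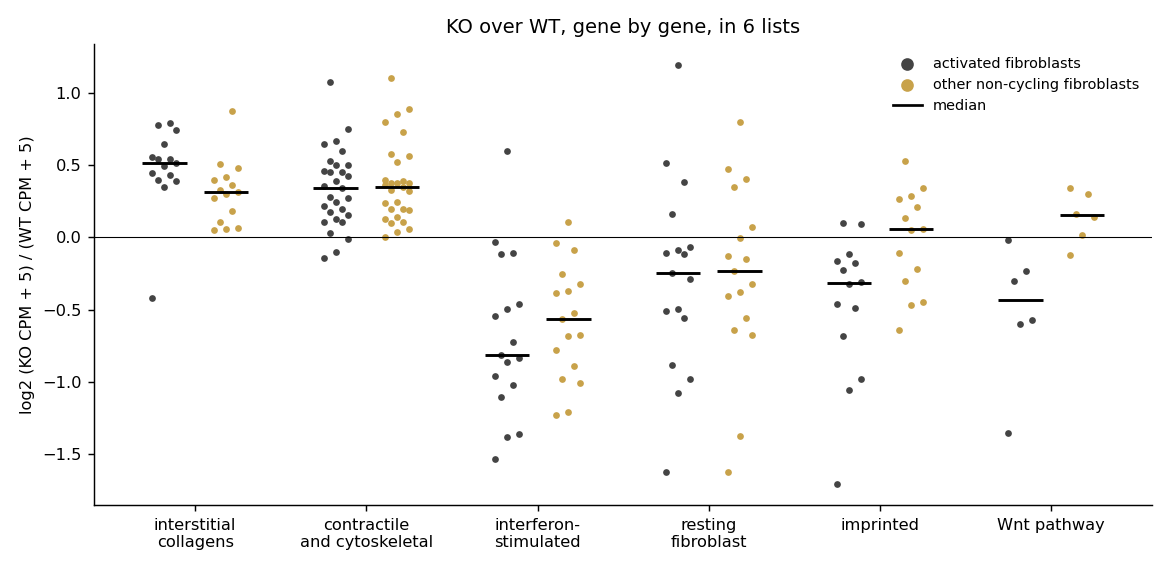
Log2 ratio of KO over WT (y axis, CPM + 5) for each measured gene of 6 lists (x axis), in activated cells (dark, left) and in other non-cycling fibroblasts (gold, right), with black bars as medians. In activated cells the collagen and contractile medians lie at 0.52 and 0.34, and the interferon-stimulated median at -0.81.

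Collagens and contractile genes went the other way from the interferon list, and by small amounts. Of 15 interstitial collagen genes 14 were higher in KO, none past 2-fold, with a median log2 ratio of 0.52 in activated cells and 0.32 in other fibroblasts. Col1a1 was at 13446 CPM in KO and 10283 CPM in WT, and Col5a3 at 449 CPM in KO and 257 CPM in WT. Col14a1 was the exception, at 491 CPM in KO and 657 CPM in WT. Of 29 contractile and cytoskeletal genes 26 were higher in KO, with a median of 0.34 in activated cells and 0.35 in other fibroblasts, and Acta2 was at 1002 CPM in KO and 594 CPM in WT. Paired by score, the collagen median was 0.32 and the contractile median 0.20, with 14 of 15 and 23 of 29 genes higher. Under TMM scaling the counts were 14 of 15 and 25 of 29.

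Of 26 genes of the TGF-beta list 16 were higher in KO and 10 lower, 2 and 1 of them past 2-fold, with a median log2 ratio of 0.11. This is near the split over all genes, and in score-paired cells 13 were higher and 13 lower. Tgfb2 was at 146 CPM in KO and 76.7 CPM in WT, and Ltbp1, which tethers latent TGF-beta to matrix, at 92.9 CPM in KO and 41.8 CPM in WT. Hbegf, an EGF-receptor ligand, was at 158 CPM in KO and 74.4 CPM in WT, with 39.1% of the WT UMIs in 1 cell. Cd44, the hyaluronan receptor, was at 231 CPM in KO and 116 CPM in WT, and in other fibroblasts at 230 CPM in KO and 124 CPM in WT. Tnn, tenascin-W, the relative of Tnc, was at 105 CPM in KO and 43.0 CPM in WT, a ratio of 2.43 (1.89 to 3.16), and in other fibroblasts at 28.6 CPM in KO and 20.5 CPM in WT. Postn was slightly lower in KO, at a ratio of 0.94 (0.92 to 0.96), and at 4711 CPM in KO and 6905 CPM in WT in score-paired cells, a log2 ratio of -0.55.

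Imprinted genes, which are expressed from 1 parental allele, were lower in activated KO cells for 12 of 14 measured genes, with a median log2 ratio of -0.32, against 0.06 in other fibroblasts. Cdkn1c, a cell cycle inhibitor, was at 88.4 CPM in KO and 189 CPM in WT, Mest at 109 CPM in KO and 220 CPM in WT, and the RNA Meg3 at 1227 CPM in KO and 1723 CPM in WT. In other fibroblasts Meg3 was at 1132 CPM in KO and 942 CPM in WT. Dlk1, a Notch-related membrane protein, was at 22.6 CPM in KO and 85.4 CPM in WT, but 1 WT cell held 54.4% of its UMIs. In the alternative without the highest doublet scores, the log2 ratio of Dlk1 was -0.67 in place of -1.71. That alternative removed 7 WT non-cycling fibroblasts, 0 of them activated, and ranked the remaining cells anew. The shift therefore does not show that the WT cell rich in Dlk1 was a doublet. Ccn3 was at 24.3 CPM in KO and 74.9 CPM in WT.

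Some of these differences were of like size in other fibroblasts. Of the 12 genes furthest up in KO, 10 had the same direction in other fibroblasts and 4 were past 2-fold there. Of the 12 furthest down, 9 had the same direction and 5 were past 2-fold. In the cycling gate 9 of the 12 up and 10 of the 12 down had the same direction, with 1 and 8 past 2-fold. AC160336.1, a long noncoding RNA gene (chr14:44544055-44637201), was at 3.39 CPM in KO and 245 CPM in WT, a ratio of 0.01, and at 3.43 CPM in KO and 252 CPM in WT in other fibroblasts. It was seen in 11.5% of activated cells in KO and 76.8% in WT. Apod had a log2 ratio of -1.63 in activated cells and -1.62 in other fibroblasts. Stmn1, by contrast, was at 26.3 CPM in KO and 30.9 CPM in WT in other fibroblasts, and Sfrp2 at 1159 CPM in KO and 1145 CPM in WT. Both sets of values come from the same 2 libraries and are not independent.

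Genes of the silencing machinery and genes raised in KO muscle cells were read as well. All 6 measured heterochromatin genes were slightly higher in KO, with a median log2 ratio of 0.19 in activated cells and in other fibroblasts, and none past 2-fold. Of 12 genes raised in KO myogenic cells in earlier results of these data, 3 were measured in activated fibroblasts and none was past 2-fold. Of 12 genes lowered in KO myogenic cells in those results, 9 were measured. In activated KO cells 8 were lower, 4 of them past 2-fold, and 1 was higher, also past 2-fold. The median log2 ratio was -0.81, against -0.22 in other fibroblasts. This median equals that of the interferon-stimulated list, so the lists may share genes. Gxylt2, a xylosyltransferase gene of that list, was at 60.7 CPM in KO and 142 CPM in WT. Both lists were chosen on these libraries and are no independent evidence. Tmem52 had no UMI in either library. Resf1 was at 55.4 CPM in KO and 51.7 CPM in WT, and Cck, below the level filter, at 11.9 CPM in KO and 4.65 CPM in WT.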

How the data were processed

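Cells of injured muscle from 1 KO and 1 WT library were profiled with 10x Genomics 3′ v2 chemistry. The matrices deposited by the authors are raw UMI counts, not normalized, with 138667420 UMIs in KO and 121703522 in WT. Per the submitters' processing notes, GRCm38 was the build and the tools include Seurat 4.0.1, STAR 2.7.8a and STARsolo 2.7.9a. Cells were gated as described in the report, counts summed per library and scaled to CPM. Log2 ratios used CPM + 5. With 1 library per group no test was run, and 2-fold marks a description. Named genes were the 12 furthest up and 12 down by the bound of the KO/WT interval nearest to 1, the 15 highest and 10 lowest of activated over other cells by the smaller log2 ratio, without mitochondrial, ribosomal, haemoglobin, immunoglobulin, Y-linked, Gm and Rik genes and Xist, and up to 6 members per gene list. The members and lists were chosen with earlier results of these data known. Intervals were tested on data simulated with Poisson counts, the model they assume. The simulation held no single cells, so it cannot show how the intervals hold where UMIs are uneven between cells. Scrublet (scanpy 1.11.5) called 0 doublets, so it had not worked, and no cell was removed in the main analysis. edgeR 4.0.16 gave TMM factors. Coordinates come from GENCODE on GRCm38, which held 55141 of 55487 identifiers. 1 gene that the naming rule chose is not reported here.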

Additional observations from a re-analysis of the deposited data

Results flagged for a closer look

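For 6 genes the KO/WT ratio in activated fibroblasts lay on the other side of 1 from the ratio in other non-cycling fibroblasts, with 95% counting intervals that exclude 1 in both and at least 1 ratio past 2-fold. The difference between the kinds of cells was not tested, since each group is 1 library. Spp1 had a log2 ratio of 1.18 in activated cells and -0.16 in other fibroblasts. After thinning, Spp1 was also seen in 75.5% of phagocytes in KO and 67.8% in WT, whose part was not tested. Gdf15, a stress-induced TGF-beta relative, had -1.23 in activated cells and 1.80 in other fibroblasts, with 37.1% of its WT UMIs in 1 activated cell. Cxcl14, a chemokine, had 0.52 in activated cells and -1.38 in other fibroblasts, and its activated level was 256 CPM in KO and 177 CPM in WT. Fewer activated cells carried Cxcl14 in KO than in WT, 39.4% against 53.6%, and its KO level was 610 CPM in the 36 cells with more Tnc than Cthrc1 and 62.8 CPM in the rest. Dlk1 had -1.71 in activated cells and 0.28 in other fibroblasts, and Ccn3 had -1.45 and 0.44. H2-Aa, an MHC class II chain of antigen-presenting cells, had 1.09 in activated cells and -1.32 in other fibroblasts. For H2-Aa, 1 KO cell held 28.9% of the UMIs, and summed phagocyte markers were 529 CPM in activated KO cells and 408 CPM in activated WT cells, whose part was not tested. The most that free RNA could give of H2-Aa was estimated at 26.6 CPM in KO and 23.0 CPM in WT, against 63.6 CPM in KO and 27.3 CPM in WT measured.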

How the results depend on the processing

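No paired analysis was possible because each group has 1 library and no test was run. The direction of the share held in all 10 alternatives that give one. The activated share was 27.2% in KO and 6.56% in WT for the top 15%, and 49.4% and 24.9% for the top 35%. The ratio of shares was 4.15 for the top 15% and 1.88 for a score of Cthrc1 and Lrrc15.

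Counts of genes past 2-fold in KO over WT were 24 higher and 26 lower. The higher count was 12 for a score of Tnc alone and 41 for cells of at most 40000 UMIs. Higher and lower counts were 41 and 66 for the top 25% within each library, 51 and 50 with a 20 CPM filter, 92 and 74 with none, and 125 and 94 at a 1.5-fold limit. Counts of activated over other cells were 12 higher and 48 lower. They were 5 and 28 for a score of Cthrc1 and Lrrc15, and 36 and 113 at 1.5-fold. The higher count was 6 for cells of at most 40000 UMIs. The lower count was 30 for the top 25% within each library and 80 with no filter. The cause of these shifts was not tested, except that looser filters and limits admit more genes. All 24 named KO/WT genes kept their sign in every alternative run, and 11 stayed past 2-fold throughout. Of 50 activated over other values for named genes, 49 kept their sign. Trf in WT had a log2 ratio of 0.47 for a score of Tnc alone. The counting intervals show how depth limited each value, but not how depth bore on which cells were chosen. Over non-cycling fibroblasts, UMIs per cell had a Spearman correlation with Tnc of 0.39 in KO and 0.34 in WT. With Cthrc1 it was 0.36 in KO and 0.38 in WT. The ratio of shares was 2.71 in the main analysis and 2.27 for cells of at most 40000 UMIs. It was 2.50 for a score thinned to 5000 UMIs.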

Other observations

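Barcodes below the depth limit, with at least 2000 and under 5000 UMIs, numbered 4176 in KO and 1298 in WT. Of these, 5 in KO and 7 in WT passed the fibroblast gate, and 3 in KO and 0 in WT had a score at or above that of the lowest activated cell. Adding barcodes from 2000 UMIs, the activated share was 40.2% in KO and 14.4% in WT.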
